A study of Homo sapiens and Mus musculus with 8 samples.

Results

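The genes described here encode the proteins of the mitochondrial ribosome and were taken as all rows of the 3 tables on the mouse melanoma line B16N whose symbol starts with Mrpl or Mrps followed by a digit. The rule found 74 symbols of 15966 in all, 47 Mrpl and 27 Mrps, and each of the 74 had a row in all 3 tables. The tables compare untreated B16N cells (wild type, day 0) with B16N exposed to UV and collected at week 2, B16N exposed to UV and collected at week 5, and a single B16N clone that overexpresses Orai1 (day 0). Orai1 forms the pore through which Ca2+ enters when internal stores run low. The clone was grown from cells transfected with wild-type Orai1 carrying a cyan fluorescent tag, selected with the antibiotic G418 and sorted. The labels give 1 sample per group, so none of the differences has a replicate check here, and time in culture and UV cannot be told apart. With 1 library per group, the deposited p-values would compare libraries, not conditions.

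Mitochondrial ribosomes sit in the mitochondrial matrix and translate the few mRNAs of the mitochondrial genome, all of which encode core subunits of the respiratory chain and the ATP synthase. Their rRNAs come from mitochondrial DNA, while every protein is encoded in the nucleus, made in the cytosol and imported. Some of these proteins descend from bacterial ribosomal proteins and others were added during the evolution of mitochondria. In melanoma, respiration is linked to the coactivator PGC-1alpha, the product of Ppargc1a, which the pigment cell factor Mitf can induce.

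The values are the authors' own comparisons, a log2 fold change and a p-value per gene, with no level per sample. Changes are given here as treated against control, each with a standard error (SE) worked out from the statistic beside it. A gene passed when its p-value, adjusted by the Benjamini-Hochberg method over every usable row of the authors' deposited table, was under 0.05, with no fold minimum. For B16N, every value given below as in the authors' deposited tables has the deposited sign turned. The SE, adjusted p, differences and recomputed values beside it were worked out here from the deposited values and do not stand in those tables. Those tables held 14648, 14821 and 15041 usable rows (2 weeks of UV, then 5 weeks, then the clone). Of all rows, 7.67% passed at 2 weeks (3.13% higher, 4.55% lower), 4.78% at 5 weeks (3.07% higher, 1.71% lower) and 22.0% in the clone (10.3% higher, 11.6% lower). The 7 melanocyte markers examined all had rows in the 3 tables, and 6 had values of their own in all 3, Sox10 being the exception. At 2 and 5 weeks Tyr (0.95, 1.32), Tyrp1 (0.39, 0.36), Dct (0.72, 0.85) and Pmel (0.70, 0.75) were higher in the authors' deposited tables. Mlana was higher at 5 weeks (0.53) but not at 2 weeks, and Mitf did not pass. Sox10, with its shared values, was lower at 5 weeks (-0.60). In the clone these markers did not move together: the authors' deposited table has Dct lower (-0.61) but Pmel higher (0.92). Of 8 markers of other cell types, 2 had rows in all 3 tables, and the myeloid gene Lyz2 alone had values of its own in all 3. Lyz2 stood at 0.38 (SE 0.94), 3.47 (SE 0.70) and 2.78 (SE 0.64) as log2 values in the authors' deposited tables for 2 weeks, 5 weeks and the clone, and its part in the results was not tested. Orai1 had no usable row in any of the 3 tables, so the label of the clone could not be checked by the transfected gene. In bulk RNA, fewer cells of a type and less RNA per cell cannot be told apart.

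Of the 74 symbols, 12 (16.2%) carried exactly the values of another, unrelated symbol in each of the 3 tables, against 28.9%, 29.3% and 29.1% of all symbols. They were Mrpl9 (with Cirbp, a cold-induced RNA-binding protein), Mrpl12 (with the acyl-CoA synthetase gene Acsl4), Mrpl14 (with the complement gene C4b), Mrpl15 (with the adhesion gene Sdk1), Mrpl19 (with the fatty acid hydroxylase gene Fa2h), Mrpl20 (with the chromatin factor gene Banf1), Mrpl23 (with the helicase gene Blm and with Eepd1), Mrpl24 (with 4933400L20Rik), Mrpl40 (with the initiation factor gene Eif1), Mrpl45 (with Prr23a1, Prr23a2 and Prr23a3), Mrpl54 (with the stress-induced transcription factor gene Atf3) and Mrps26 (with the chemokine receptor gene Ackr3). Mrpl14 shared its values with C4b alone at 2 weeks, but with 2 symbols at 5 weeks and 15 in the clone, C4b among them. The tables do not show to which symbol of a set the values belong. The largest changes under any Mrpl or Mrps symbol with an SE under 1 were of this kind. Mrpl15 and Sdk1 stood at 0.012 (SE 0.11), 0.39 (SE 0.16) and 1.68 (SE 0.10) in the authors' deposited tables for 2 weeks, 5 weeks and the clone. Mrpl54 and Atf3 stood at 0.059 (SE 0.20), 1.45 (SE 0.22) and -1.61 (SE 0.25) in the same order in the authors' deposited tables. For Mrpl54 the 5-week value passed upwards (adjusted p = 1.23e-08) and the clone value downwards (adjusted p = 2.38e-09) in the authors' deposited tables. Neither pair can be read as a change of a mitochondrial ribosomal protein gene.

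Among the other shared symbols, Mrpl40 was lower at 2 weeks (-0.38, SE 0.13, adjusted p = 0.0375), and in the clone Mrpl12 (-0.36, SE 0.13) and Mrpl20 (-0.38, SE 0.090) were lower and Mrpl9 (0.77, SE 0.29) was higher in the authors' deposited tables. Mrpl14 and Mrps26 had an SE above 1 in all 3 comparisons, and neither passed. No SE of the 62 genes with values of their own was above 0.62. The results below rest on these 62 genes, 36 Mrpl and 26 Mrps, unless the 74 are named. Mrpl39, Mrpl53, Mrps6 and Mrps18b had no usable row and were not analysed here.

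**Figure D1:**
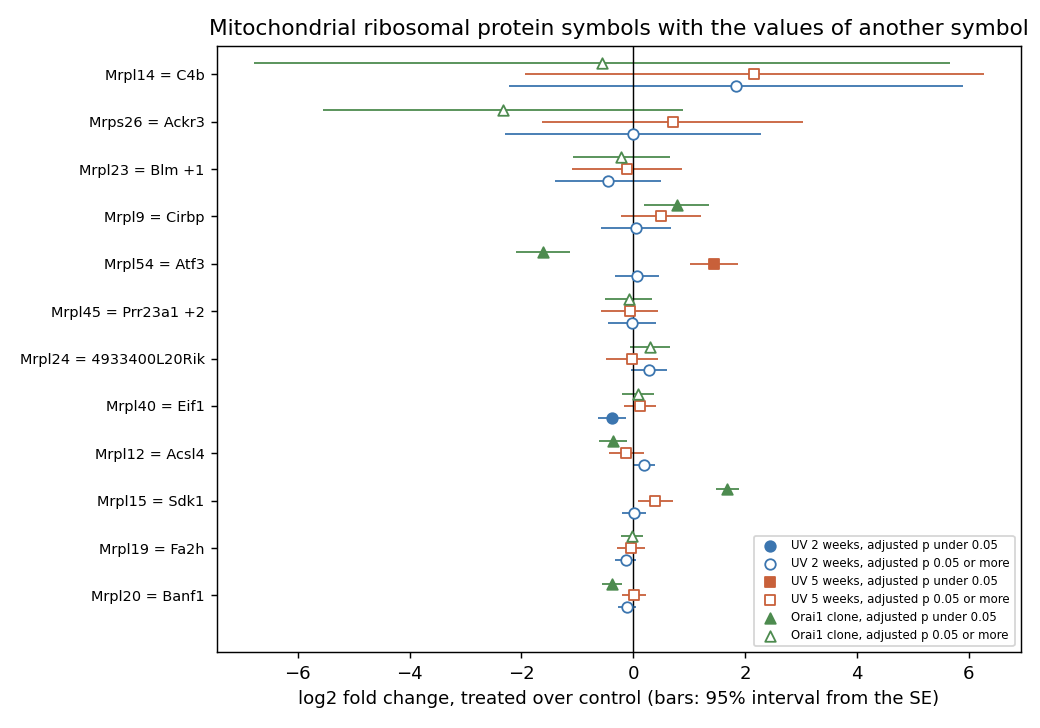
Log2 fold change (x axis, treated over control) of the 12 symbols whose values equal those of another symbol, named after the equals sign with the number of further symbols sharing them at 2 weeks; circles are UV 2 weeks, squares UV 5 weeks, triangles the Orai1 clone, filled where the adjusted p was under 0.05, and bars are 95% intervals from the SE. Mrpl15 at 1.68 in the clone and Mrpl54 at 1.45 at 5 weeks and -1.61 in the clone stand farthest from 0 among those with narrow intervals.

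After 2 weeks of UV, 5 of the 62 genes were higher and none was lower, with rises of 1.25-fold to 1.46-fold. Mrps33, a small-subunit protein without a bacterial counterpart, rose by 0.55 log2 units (adjusted p = 0.0112, SE 0.16) in the authors' deposited table. Mrpl57, a mitochondria-specific protein of the large subunit, rose by 0.54 (adjusted p = 0.0161, SE 0.16) in the authors' deposited table. Mrpl13, which binds rRNA as its bacterial counterpart does, rose by 0.50 (adjusted p = 0.0126, SE 0.15) in the authors' deposited table. Mrpl33, also of bacterial descent, rose by 0.47 (SE 0.11) with the smallest adjusted p of the family, 4.17e-04, in the authors' deposited table. Mrpl41, a mitochondria-specific protein, rose by 0.32 (adjusted p = 0.0260, SE 0.10) in the authors' deposited table.

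The 5 of 62 are 8.06%, near the 8.99% of all symbols with values of their own that passed at 2 weeks, of which 3.71% were higher and 5.28% lower. The median change of the 62 was 0.099, with quartiles at -0.0050 and 0.24, beside a median of 0.020 over all symbols with values of their own. Mrpl37 had the lowest value (-0.35, SE 0.27, adjusted p = 0.677) and Mrpl35 (-0.34, SE 0.13, adjusted p = 0.0770) came next in the authors' deposited table, and neither passed. For 60 of the 62 genes the 95% interval lay inside a 2-fold change in either direction. Among all 74 symbols 5 were higher and 1 was lower. With the median of cytosolic ribosomal protein genes (0.098) set to 0, 2 were higher and 3 lower, and Mrpl13, Mrpl41 and Mrpl57 no longer passed (adjusted p from 0.0591 to 0.190). That centring lowers every row by 0.098, and the share of all rows that passed under it was not computed.

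After 5 weeks of UV, Mrps24 was higher and Mrpl49 was lower, and the other 60 genes did not pass. Mrps24, whose bacterial counterpart lines the channel by which mRNA enters the ribosome, rose by 0.67 (adjusted p = 0.00823, SE 0.18), or 1.59-fold, in the authors' deposited table. Mrpl49, a mitochondria-specific protein of the large subunit, fell by 0.45 log2 units (adjusted p = 0.0216, SE 0.13) in the authors' deposited table. These 2 genes are 3.23% of the 62, beside 5.51% of all symbols with values of their own (3.53% higher, 1.98% lower). None of the 5 genes that had risen at 2 weeks passed at 5 weeks. In the authors' deposited table Mrpl57 stood at 0.37 (SE 0.23), Mrps33 at 0.28 (SE 0.19), Mrpl13 at 0.030 (SE 0.17), Mrpl33 at -0.077 (SE 0.16) and Mrpl41 at -0.22 (SE 0.14). Of these 5, Mrpl41 alone had a change that differed between 5 and 2 weeks in the test given below. How many of all genes higher at 2 weeks also passed at 5 weeks was not computed.

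Values at 5 weeks were less precise, with a median SE of 0.19 beside 0.16 at 2 weeks, and 56 of 62 intervals lay inside a 2-fold change. The median change was 0.14, beside 0.0069 over all symbols with values of their own. Highest in the authors' deposited table were Mrpl36 (0.86, SE 0.62), Mrpl42 (0.75, SE 0.28, adjusted p = 0.117) and Mrps17 (0.69, SE 0.61), and these did not pass. Among all 74 symbols, 3 passed, the third being Mrpl54 with its shared values.

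In the Orai1 clone, 8 of the 62 genes were higher and 5 were lower. Of the 38 large-subunit genes 4 were higher and 4 lower, and of the 23 small-subunit genes 4 were higher and 1 lower, with no test between the subunits. Mrps24 stood apart, 2.65-fold higher (log2 change 1.41, adjusted p = 2.12e-30, SE 0.12) in the authors' deposited table, and was the single gene of the 62 past 2-fold in any comparison. Mrpl50, a mitochondria-specific protein of the large subunit, had the largest fall, 0.85 log2 units (adjusted p = 5.73e-12, SE 0.115) in the authors' deposited table.

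The other genes that rose in the clone changed less than 2-fold. Mrps18a, which despite its name is assigned to the large subunit, rose by 0.58 (adjusted p = 0.00103, SE 0.15) in the authors' deposited table. Mrps14, of bacterial descent, rose by 0.53 (SE 0.19) and Mrps21, also of bacterial descent, by 0.50 (SE 0.15) in the authors' deposited table. Mrps23, mitochondria-specific, rose by 0.50 (adjusted p = 0.0238, SE 0.17) in the authors' deposited table. Of the large subunit, 3 genes named Mrpl were higher. Mrpl47, whose bacterial counterpart lies by the exit of the peptide tunnel, rose by 0.73 (adjusted p = 0.00984, SE 0.23) in the authors' deposited table. Mrpl2, a core rRNA-binding protein near the peptidyl transferase centre, rose by 0.41 (SE 0.13) and Mrpl52 by 0.42 (SE 0.15) in the authors' deposited table.

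The falls in the clone besides Mrpl50 were between 0.36 and 0.59 log2 units. Mrpl33 fell by 0.59 (adjusted p = 1.47e-04, SE 0.135) and Mrpl49 fell by 0.51 (adjusted p = 4.78e-06, SE 0.099) in the authors' deposited table. Mrpl34, a small protein of bacterial descent, fell by 0.49 (adjusted p = 0.0205, SE 0.17) in the authors' deposited table. Mrps12, the counterpart of the bacterial protein at the decoding centre, fell by 0.36 (adjusted p = 0.0115, SE 0.12) in the authors' deposited table and was the single small-subunit gene that fell.

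The 13 of 62 genes that passed in the clone are 21.0%, below the 25.9% of all symbols with values of their own, of which 12.0% were higher and 13.9% lower. The spread of the 62 changes, an interquartile range of 0.45 around a median of 0.16, lay beside 0.78 for all symbols with values of their own. The latter were measured less precisely, with a median SE of 0.25 against 0.17, and among rows with an SE of at most 0.3 the interquartile ranges were 0.46 and 0.60. Over the same rows, 22.8% of 57 genes passed in the clone, 8.77% of 57 at 2 weeks and 3.77% of 53 at 5 weeks, beside 36.6%, 15.1% and 8.36% of all symbols with values of their own. These shares are descriptions, and no test of the group was made. Among all 74 symbols 10 were higher and 8 lower in the clone. With the median of cytosolic ribosomal protein genes (0.25) set to 0, 2 were higher and 17 lower. That centring lowers every row of the clone by 0.25, and the share of all rows that passed under it was not computed. Of the 62 genes, only Mrps24 then stayed among the higher genes of the clone, while Mrpl2, Mrpl47, Mrpl52, Mrps14, Mrps18a, Mrps21 and Mrps23 no longer passed (adjusted p from 0.0909 to 0.528).

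**Figure D2:**
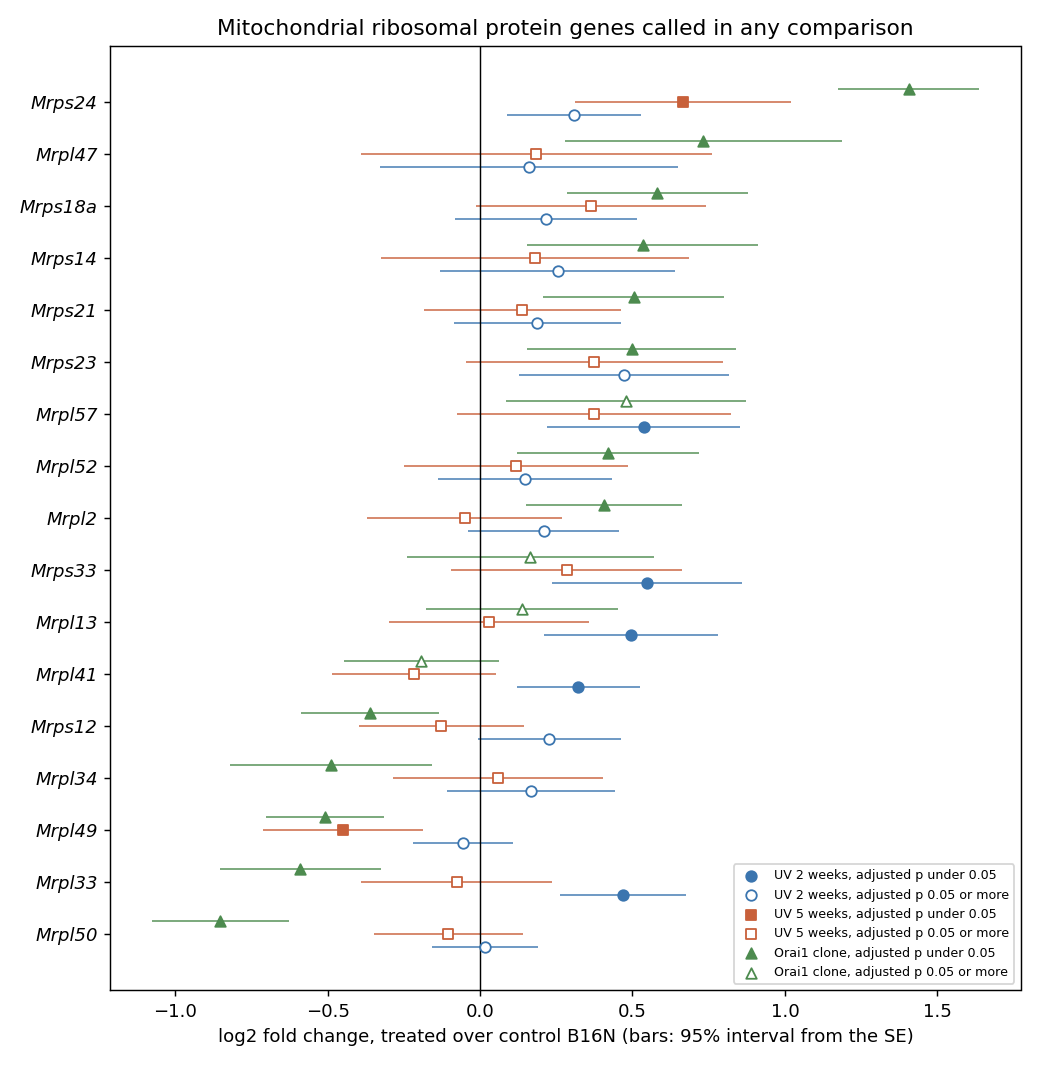
Log2 fold change (x axis, treated over control) of the genes with values of their own that passed in any comparison; circles are UV 2 weeks, squares UV 5 weeks, triangles the Orai1 clone, filled where the adjusted p was under 0.05, and bars are 95% intervals from the SE. Mrps24 lies to the right in the clone at 1.41, Mrpl50 to the left at -0.85, and Mrpl33 has filled points on both sides of 0.

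The changes were then set against each other gene by gene with a normal test of their difference. The common control cancels from the difference but its error enters both SE, which widens the SE of the difference. With 1 sample per group in the labels, the SE cannot take in spread between cultures, and for that the test can be too lenient. P-values were adjusted over the symbols that shared values with no other symbol in either table. Between 5 and 2 weeks of UV, the change of Mrpl41 was the one that passed among the 62 genes, and which gene passed depended on the setting. It was 0.32 at 2 weeks and -0.22 at 5 weeks in the authors' deposited tables, a difference of -0.54 (adjusted p = 0.0467, SE 0.17). The 1 gene is 1.61% of 62, beside 3.75% of all symbols tested (2.31% higher and 1.44% lower at 5 weeks). With symbols of shared values from the authors' deposited tables included, the adjusted p of Mrpl41 was 0.0504, and with cytosolic ribosomal protein genes set to 0 it was 0.0840. Under that centring Mrpl35 passed instead, in the opposite direction (0.62, adjusted p = 0.0423), in the authors' deposited tables. Mrpl35 also passed beside Mrpl41 among rows of the authors' deposited tables with an SE of at most 0.3 (adjusted p = 0.0490). Mrpl33 had a similar difference in the authors' deposited tables, -0.55 (adjusted p = 0.0905, SE 0.19), which did not pass. Mrpl35 had one of the opposite sign in the authors' deposited tables, 0.57 (adjusted p = 0.0819, SE 0.20), which did not pass without these settings.

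Between the clone and 2 weeks of UV, 7 of the 62 changes differed (11.3%, beside 13.2% of all symbols tested, 5.25% higher and 7.98% lower), 1 higher and 6 lower in the clone. Mrps24 was higher in the clone by 1.10 (adjusted p = 1.12e-09, SE 0.16) in the authors' deposited tables. Mrpl33, which rose at 2 weeks and fell in the clone, differed by -1.06 (adjusted p = 4.44e-08, SE 0.17) in the authors' deposited tables. Mrpl50 differed by -0.87 (adjusted p = 1.28e-07, SE 0.15) in the authors' deposited tables. The other 4, all lower in the clone, were Mrpl34 (-0.66, SE 0.22), Mrps12 (-0.59, SE 0.17), Mrpl41 (-0.51, SE 0.17) and Mrpl49 (-0.45, SE 0.13) in the authors' deposited tables.

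Between the clone and 5 weeks of UV, 2 of 62 changes differed (3.23%, beside 6.18% of all symbols tested, 1.49% higher and 4.69% lower). Mrps24 was higher in the clone by 0.74 (adjusted p = 0.0141, SE 0.22) in the authors' deposited tables. With cytosolic ribosomal protein genes set to 0 in the authors' deposited tables Mrps24 no longer passed (adjusted p = 0.0968), while Mrpl33 (-0.71, adjusted p = 0.0104) and Mrpl34 (-0.75, adjusted p = 0.0265) did. Mrpl50 was lower in the clone by a difference of -0.75 (adjusted p = 4.98e-04, SE 0.17) in the authors' deposited tables. Mrpl49, lower in both samples, differed by -0.059 between them, with a 95% interval from -0.39 to 0.27 in the authors' deposited tables. The interval for Mrpl41 ran from -0.35 to 0.39 around 0.024 in the authors' deposited tables.

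**Figure D3:**
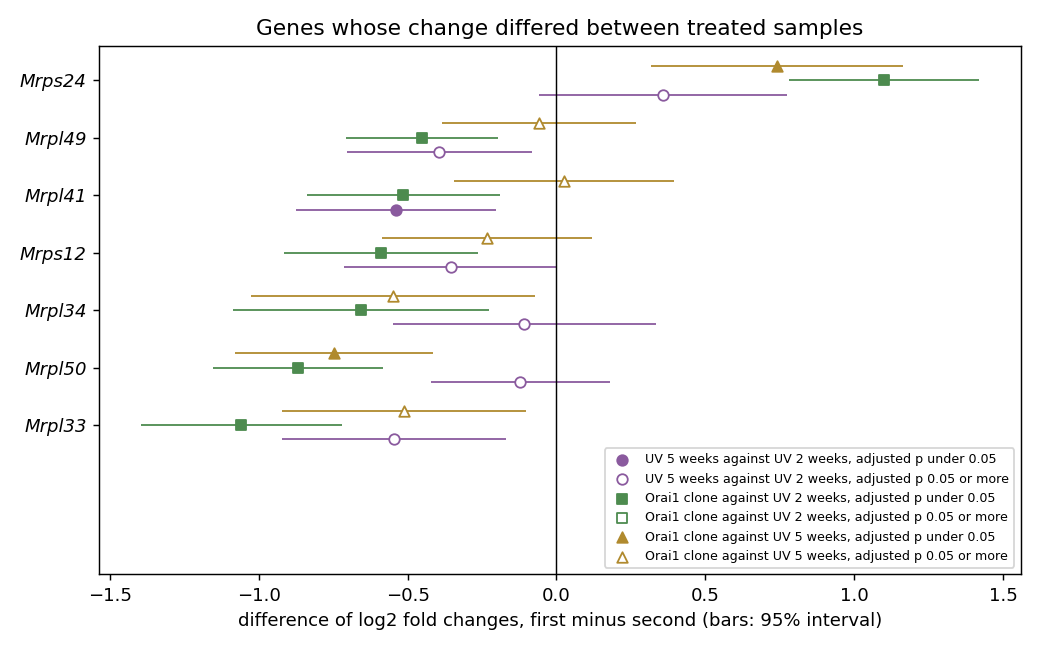
Difference of log2 fold changes (x axis, first sample named minus the second) for the genes whose change differed in any pair; circles are UV 5 weeks against 2 weeks, squares the clone against 2 weeks, triangles the clone against 5 weeks, filled where the adjusted p was under 0.05, and bars are 95% intervals. Mrps24 at 1.10 is the single filled point above 0 for the clone against 2 weeks, and Mrpl33 at -1.06 is the lowest.

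Genes of the 62 were also grouped by subunit and by descent, leaving aside Mrps36, whose product is known as part of the 2-oxoglutarate dehydrogenase complex and not of the ribosome. Mrps36 stood at -0.13 (SE 0.24), 0.38 (SE 0.27) and -0.30 (SE 0.25) in the authors' deposited tables for 2 weeks, 5 weeks and the clone, and it did not pass. Large-subunit genes had medians of 0.12, 0.062 and 0.12 over 38 genes in that order, and small-subunit genes had medians of 0.11, 0.17 and 0.17 over 23. With cytosolic ribosomal protein genes set to 0, the median of all 62 was 0.0012 at 2 weeks, 0.094 at 5 weeks and -0.082 in the clone. The median over all symbols moves down by the same amount under that centring. The 15 small-subunit genes of bacterial descent had the highest median of the 4 groups in the clone, 0.28, with 3 higher and 1 lower. The 16 mitochondria-specific large-subunit genes had the lowest, 0.026, with 2 higher and 2 lower. Mrps18a, 1 of these 2 higher genes, was listed there although Mrps18c was listed among those of bacterial descent, and the median rests on that placement. Among the 22 large-subunit genes of bacterial descent 2 were higher and 2 lower, and among the 8 mitochondria-specific small-subunit genes 1 was higher. No test between these groups was made.

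The genes with the smallest errors held both near-zero and large changes. At 2 weeks the lowest SE was that of Mrpl49, 0.084, at a change of -0.056 in the authors' deposited table. At 5 weeks it was that of Mrpl51, at a change of -0.036 (SE 0.12), and in the clone that of Mrpl43, at -0.047 (SE 0.097), in the authors' deposited tables. Also among the precise values of the clone in the authors' deposited table were the passing changes of Mrpl49 (-0.51, SE 0.099), Mrpl50 (-0.85, SE 0.115), Mrps12 (-0.36, SE 0.116) and Mrps24 (1.41, SE 0.118). Mrps34, needed for the assembly of the small subunit, stood at 0.026 (SE 0.11), 0.042 (SE 0.16) and 0.057 (SE 0.13) in the authors' deposited tables for 2 weeks, 5 weeks and the clone. Mrpl17 stood at 0.063 (SE 0.099), 0.021 (SE 0.12) and 0.18 (SE 0.11) in the authors' deposited tables in that order. Of large-subunit genes near the catalytic core or the tunnel, Mrpl3 stood at -0.048 (SE 0.15), -0.38 (SE 0.19) and -0.25 (SE 0.15) in the authors' deposited tables. Mrpl4 had wider errors, at 0.16 (SE 0.21), -0.024 (SE 0.26) and 0.32 (SE 0.20) in the authors' deposited tables, and neither gene passed.

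**Figure D4:**
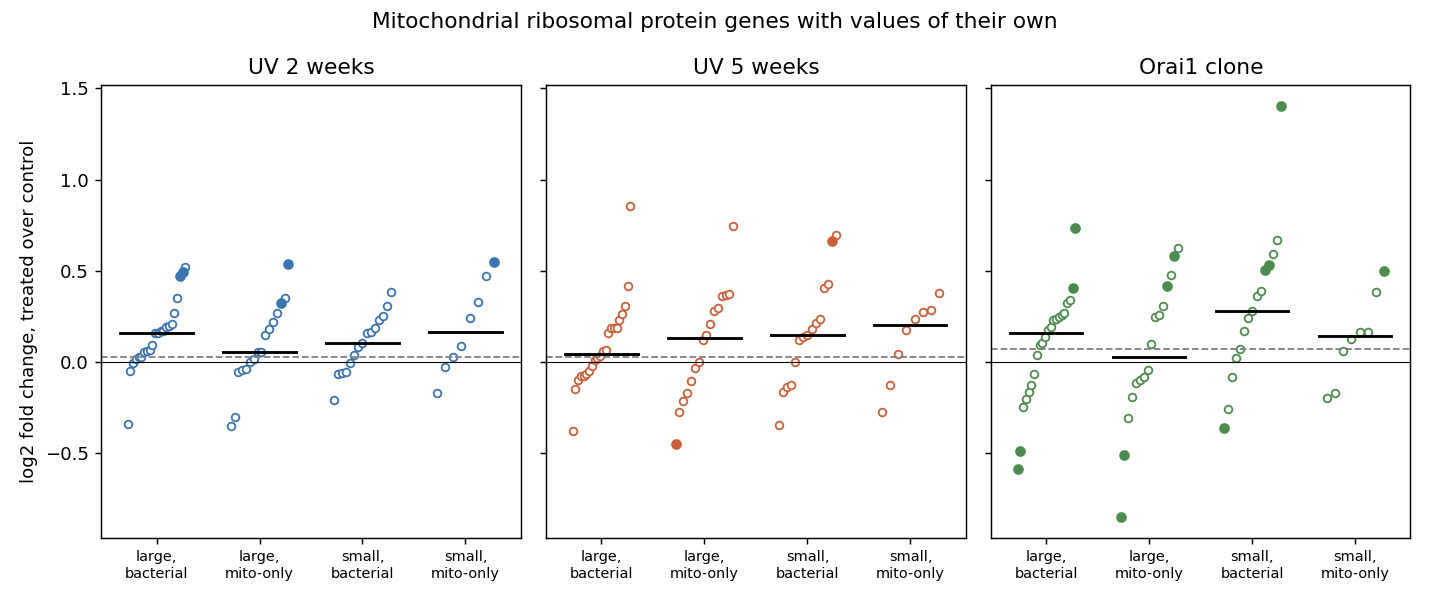
Log2 fold change (y axis, treated over control) of each gene with values of its own, ranked within 4 groups by subunit and descent, for UV 2 weeks (left), UV 5 weeks (middle) and the Orai1 clone (right); filled points had an adjusted p under 0.05, black bars are group medians and the dashed line is the median of all rows. In the clone the medians are 0.16, 0.026, 0.28 and 0.14 from left to right, and Mrps24 is the point at 1.41.

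Related gene lists follow, and no test of any list was made. Their shares stand beside the 8.99%, 5.51% and 25.9% of all symbols with values of their own that passed at 2 weeks, 5 weeks and in the clone. Proteins of the mitochondrial ribosome with other names were read from a list of 5, of which 4 had values of their own. Of these 4, 1 passed at 2 weeks (25%), none at 5 weeks and 2 in the clone (50%). Gadd45gip1, a large-subunit protein, rose at 2 weeks (0.49, SE 0.11, adjusted p = 2.00e-04) and in the clone (0.56, SE 0.11, adjusted p = 4.79e-06) and stood at 0.20 (SE 0.15) at 5 weeks in the authors' deposited tables. Dap3, a GTP-binding protein of the small subunit, rose in the clone (0.66, adjusted p = 1.49e-04, SE 0.15) in the authors' deposited table. Ptcd3 and Aurkaip1 did not pass in any comparison.

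Of 22 assembly and rRNA modification genes with values of their own, 1 was higher at 2 weeks (4.55%) and none passed at 5 weeks. In the clone 4 were higher and 1 lower (22.7%, beside 25.9% of all symbols with values of their own). Malsu1, which keeps an immature large subunit from joining the small one, was the gene that rose at 2 weeks (0.47, SE 0.15) in the authors' deposited table. Among those of the clone, the rRNA methyltransferase gene Mrm3 (0.66, SE 0.19), the small-subunit rRNA chaperone gene Eral1 (0.55, SE 0.16), the helicase gene Ddx28 (0.52, SE 0.12) and Mrm1 (0.46, SE 0.17) rose, and Mpv17l2 fell (-0.53, SE 0.17) in the authors' deposited table. Of 14 translation and release factor genes none passed under UV and 2 passed in the clone (14.3%). In the clone the release factor gene Mtrf1 (1.05, SE 0.33) and the insertase gene Oxa1l (0.56, SE 0.20), whose product receives new proteins at the inner membrane, rose in the authors' deposited table. Tufm, the mitochondrial elongation factor, stood at -0.25 (SE 0.30), -0.45 (SE 0.33) and -0.16 (SE 0.28) in the authors' deposited tables for 2 weeks, 5 weeks and the clone.

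Of 13 genes of mitochondrial transcription and RNA handling none passed under UV. In the clone 2 were higher and 1 lower (23.1%, beside 25.9% of all symbols with values of their own). The tRNA-processing genes Hsd17b10 (1.15, SE 0.30) and Elac2 (0.70, SE 0.27) rose and Trmt10c, whose product works with that of Hsd17b10, fell (-0.60, SE 0.11) in the authors' deposited table. Mitochondrial tRNA synthetase genes had 3 of 18 higher and 1 lower in the clone (22.2%, also beside 25.9%). They were Sars2 (0.67, SE 0.26), Tars2 (0.66, SE 0.21) and Kars (0.45, SE 0.15) against Gars (-0.46, SE 0.14) in the authors' deposited table. Kars and Gars also serve the cytosol.

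Regulators known to drive nuclear genes for mitochondria had 1 of 9 lower at 2 weeks (11.1%) and 1 of 9 lower at 5 weeks (11.1%). In the clone 4 of 9 were lower (44.4%), and none was higher in any comparison. Ppargc1a fell by 2.93 log2 units in the clone (adjusted p = 7.73e-24, SE 0.28) and stood at 0.21 (SE 0.17) and -0.093 (SE 0.21) at 2 and 5 weeks in the authors' deposited tables. Mitf stood at 0.38 (SE 0.51), 0.60 (SE 0.56) and 0.39 (SE 0.49) in the authors' deposited tables for 2 weeks, 5 weeks and the clone. Mitf did not pass, and a link between Mitf and Ppargc1a was not tested. The nuclear receptor gene Esrra fell at 2 weeks (-0.40, SE 0.11) and in the clone (-0.42, SE 0.14) in the authors' deposited tables. Gabpb1, a subunit of an ETS-family activator of ribosomal protein genes of mitochondria, fell in the clone (-0.52, SE 0.14) in the authors' deposited table. Myc fell by 1.34 at 5 weeks (SE 0.20) and by 0.87 in the clone (SE 0.13) as log2 values in the authors' deposited tables.

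The mitochondrially encoded genes include the rRNAs and the mRNAs that these ribosomes read. At 5 weeks 6 of 14 with values of their own were higher and none lower (42.9%), led by mt-Co1 (0.92, SE 0.14) and mt-Nd4 (0.68, SE 0.16) in the authors' deposited table. The large rRNA gene mt-Rnr2 fell at 2 weeks (-0.88, SE 0.16, adjusted p = 1.67e-06) and stood at -0.54 (SE 0.59) and -0.94 (SE 0.54) at 5 weeks and in the clone in the authors' deposited tables. The small rRNA gene mt-Rnr1, which shares its values with another symbol, stood at -0.30 (SE 0.39), 0.012 (SE 0.37) and 0.43 (SE 0.99) in the authors' deposited tables for 2 weeks, 5 weeks and the clone. In the clone mt-Cytb (0.44, SE 0.098) and mt-Co1 (0.37, SE 0.11) were higher and mt-Nd2 (-0.68, SE 0.10), mt-Nd6 (-0.67, SE 0.10) and mt-Nd5 (-0.46, SE 0.11) lower in the authors' deposited table. These 5 are 35.7% of the 14. How rRNA was removed or mRNA selected was not given in the sources used here.

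Cytosolic ribosomal protein genes, the counterparts outside mitochondria, had 7 of 59 higher and none lower at 2 weeks (11.9%) and 2 of 59 higher at 5 weeks (3.39%). In the clone 10 of 58 were higher and 5 lower (25.9%, the same as the share of all symbols with values of their own). Among them Rpl27a (1.14, SE 0.28) was higher and Rps3 (-1.02, SE 0.14) lower in the clone in the authors' deposited table. Mitochondrial import genes had 3 of 23 higher at 2 weeks (13.0%), none at 5 weeks, and 2 higher and 5 lower in the clone (30.4%). Timm8b, a chaperone of the intermembrane space, rose at 2 weeks (0.74, SE 0.094) and fell in the clone (-0.47, SE 0.12) in the authors' deposited tables. The import receptor gene Tomm20 fell (-1.27, SE 0.10) and the inner-membrane channel gene Timm17a rose (0.92, SE 0.10) in the clone in the authors' deposited table.

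**Figure D5:**
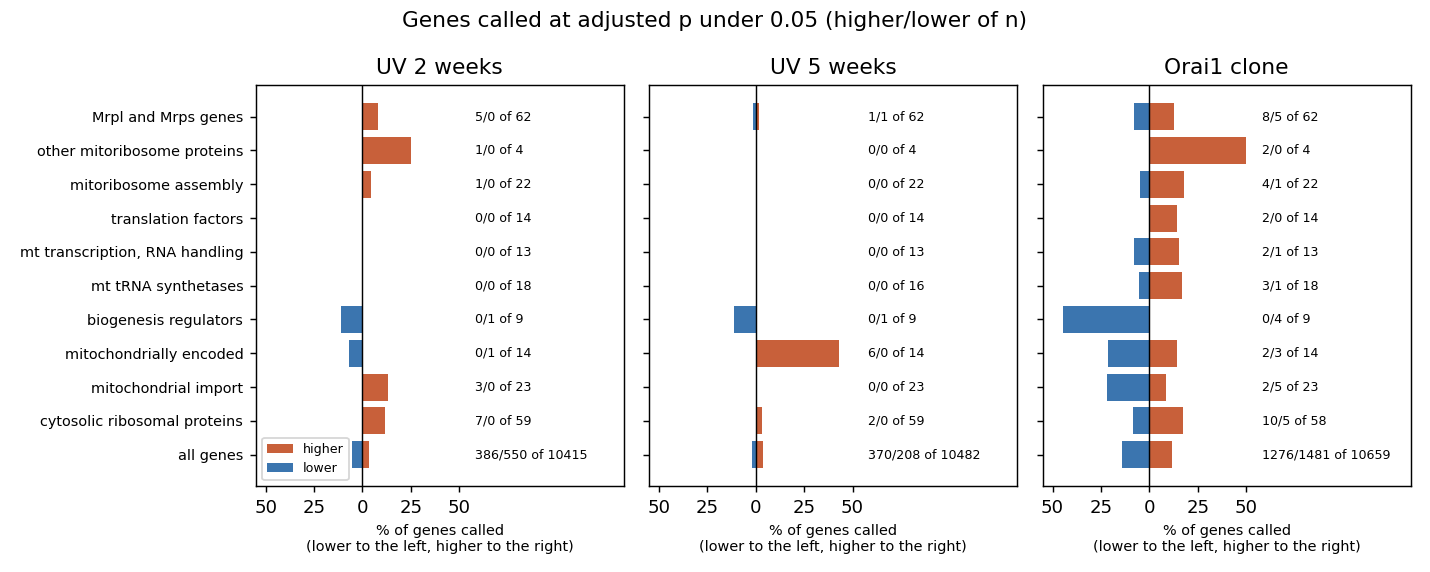
Percentage of genes with values of their own that passed (x axis, higher to the right in orange, lower to the left in blue) for the mitochondrial ribosomal protein genes, 9 related gene lists and all genes (y axis), for UV 2 weeks, UV 5 weeks and the Orai1 clone; the counts of higher and lower genes and the number of genes stand at the right. Mrpl and Mrps genes had 5 higher at 2 weeks, 1 higher and 1 lower at 5 weeks, and 8 higher and 5 lower in the clone, each of 62.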

How the data were processed

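The authors deposited 3 tables on B16N with a log2 fold change, a test statistic (a score) and a p-value per gene symbol, per the file headers. The genome build was GRCm38 per the submitters' processing notes. Aligner, counting method, test and library numbers are not given in the sources used here. Deposited log2 values have the control in the numerator: all 1357 symbols listed in only 1 table, as genes unread in the control would be, had negative values, so signs were turned. Deposited p-values equalled the two-sided normal p of the score within 5.0e-08, so log2 change over score gave the SE. The tables hold no counts, so depth is unknown. From every table a single nameless row was dropped, and 3 rows of the clone lacked a p-value.

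Benjamini-Hochberg adjustment ran over each whole table. Differences between treated samples used a normal test with both SE added in squares. The genes and lists were chosen with earlier results of these data known. Genes named passed in a comparison or difference, share values with another symbol, or have the lowest SE; per list up to 4 passing genes of the largest change were the rule. Other genes were named after their values were seen. Mitochondrial ribosomal protein genes have processed pseudogenes, which unstated counting could have mixed in. Mouse coordinates and sequences were not used here. Alternatives were fold minimums, an adjusted p under 0.01, SE limits, shared values left out and other centring. The procedure was run on simulated data, drawn with the same SE that the test uses and with no common control. That run therefore cannot check the SE itself or the lack of replicates. Python 3.11.15, numpy 2.4.6, pandas 2.3.3, scipy 1.17.1 and matplotlib 3.10.9 were used.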

Additional observations from a re-analysis of the deposited data

Results flagged for a closer look

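The change of Mrpl41 differed between 5 and 2 weeks of UV by -0.539 (log2) in the authors' deposited tables, and was noted because the test of the difference itself passed (adjusted p = 0.0467).

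The deposited human tables, which no comparison above uses, hold 3 genes of this family, MRPL20, MRPL32 and MRPL36. In the line WM983, exposed to UV for 2 weeks by its time label, their log2 changes were -1.028, -1.047 and -1.123 in the authors' deposited table, with signs as deposited and a direction that is not known. Each had the smallest p-value of that table (5e-05), as did 351 of its 420 rows. In UACC257 MRPL20 stood at -0.3772 (unadjusted p = 0.0471), MRPL32 at -0.19 (unadjusted p = 0.204) and MRPL36 at -0.088 (unadjusted p = 0.656) in the authors' deposited table. These were noted as signals outside the mouse comparisons, and no adjusted p was computed for tables of 420 rows.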

How the results depend on the processing

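No paired analysis was possible because each group has 1 sample, and no replicate could be left out. The 6 genes of 74 that passed at 2 weeks became 0 with a fold minimum of 1.5 or 2 and 1 with an adjusted p under 0.01. The 3 at 5 weeks became 1 with a 2-fold minimum. The 18 in the clone became 7 with a 1.5-fold minimum, 3 with a 2-fold minimum and 10 with an adjusted p under 0.01. A 2-fold minimum also cut the passing rows of all genes. It left 1021 out of 3305 passing clone rows. After UV for 2 weeks it left 51 out of 1124, and after 5 weeks 269 out of 708. All-gene counts for the other thresholds are not given here. Of the differences, the 1 between 5 and 2 weeks became 0 with a fold minimum of 1.5 or 2 or an adjusted p under 0.01, and 2 with an SE of at most 0.3. The 7 between the clone and 2 weeks became 2 with a 2-fold minimum. The 2 between the clone and 5 weeks became 0 with a 2-fold minimum, 1 with an adjusted p under 0.01 and 4 with shared values included, a setting chosen after seeing the data. With the median of cytosolic ribosomal protein genes set to 0, the median change of the 74 went from 0.072 to -0.026 at 2 weeks and from 0.11 to -0.13 in the clone. That centring moves all rows of a comparison by the same amount. With the median of rows of SE at most 0.3 set to 0, Mrpl40 of the authors' deposited table no longer passed (adjusted p = 0.0602). The other 46 of 63 recomputed counts and medians stayed within 1.5 times (counts), or within 0.1 log2 units with the same sign (medians). An equal count was not always the same gene: between 5 and 2 weeks it was Mrpl41 in the main setting, Mrpl35 in the opposite direction with cytosolic ribosomal protein genes set to 0, and Mrpl54 with shared values included. Of 289 recomputed values of single genes 204 kept their direction and passed, 85 no longer passed and none turned. The difference test leaves out shared values in itself, so that alternative was not run there. Depth is unknown, so what it limits could not be computed.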
